A study of Mus musculus with 4 samples.

Results

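Cycling stromal cells of the adult mouse gut are described here, that is, mesenchymal stromal cells (MSC) of the lamina propria that carried transcripts of genes used in DNA replication and mitosis. A cell counted as cycling when it passed the cell filter (at least 500 genes, at least 1000 unique molecular identifiers (UMIs) and at most 10% mitochondrial UMIs), held at least 1 UMI of the collagen gene *Col1a2*, and held at least 1 UMI of at least 2 of the 7 genes *Mki67*, *Top2a*, *Prc1*, *Tk1*, *Cenpm*, *Clspn* and *Hist1h1b*. This rule found 88 cells among 34983 barcodes, of which 32216 passed the filter and 31147 also held *Col1a2*. The comparison cells were the 30335 *Col1a2*+ cells with none of the 7 genes (marker-free cells), and the 724 cells with 1 of the 7 genes entered neither group. Levels of the 7 genes and of *Col1a2* chose the cells, so they are given as a description only.

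A dividing cell first licenses its replication origins with the MCM helicase, copies its DNA in S phase while histones are made for the new chromatin, and then condenses and separates its chromosomes on the spindle. E2F factors are known to drive the genes of the first steps, and a later wave of mitotic genes is controlled through promoter elements called CHR and CCAAT boxes. Most stromal cells of the adult gut are at rest, whereas the epithelium beside them renews continuously. The lamina propria (LP) is the connective tissue under that epithelium, and its fibroblasts (FB), smooth muscle cells (SMC) and pericytes make matrix and signals for it.

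Single-cell RNA-seq was performed on small intestine and colon, with 2 libraries each (replicates 1 and 2). All mice were untreated females of strain C57BL6/Nrj, 8 to 10 weeks old, and 3 of them were pooled in each of 2 independent experiments, so each library is 1 pool. The muscularis externa had been removed, and live cells were sorted that carried Itgb1 (an integrin) and lacked CD45, Ter119, EpCAM, CD31, L1CAM and BP3, markers of blood, epithelial, endothelial and other cells, although a plasma cell-like cluster of 89 and an endothelial-like cluster of 28 *Col1a2*+ cells remained. Values were raw UMI counts, 14341443 to 52269372 in a library.

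Libraries differed in size and depth. Replicate 1 of each intestine was small and deep, and replicate 2 was large and shallow, so that 80 of the 88 cycling cells came from the replicate 2 libraries. Median depth of marker-free cells was 8137 and 2784 UMIs in small intestine replicates 1 and 2 and 9279.5 and 3925 UMIs in colon replicates 1 and 2, and values below are given in this order. Between 0 and 69 cell barcodes were shared by any pair of libraries, the most by small intestine and colon replicate 2. Whether the replicates also differed in kit (3′ or 5′) cannot be told from the labels. The p-values below measure the spread between these pools.

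Cycling cells made up less than 0.3% of *Col1a2*+ cells in each library. In small intestine they were 4 of 1344 cells (0.298%, exact 95% Clopper-Pearson interval 0.0811 to 0.760%) and 44 of 15157 cells (0.290%, 0.211 to 0.390%). In colon they were 4 of 2154 cells (0.186%, 0.0506 to 0.475%) and 36 of 12492 cells (0.288%, 0.202 to 0.399%). All 4 intervals overlap, and they cover counting error only. Mean shares were 0.294% ± 0.00518 (SD, n = 2) in small intestine and 0.237% ± 0.0725 (SD, n = 2) in colon, a difference of -0.0570 percentage points (two-sided exact permutation test, p = 0.333, the smallest p that 2 against 2 libraries can give).

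**Figure D1:**
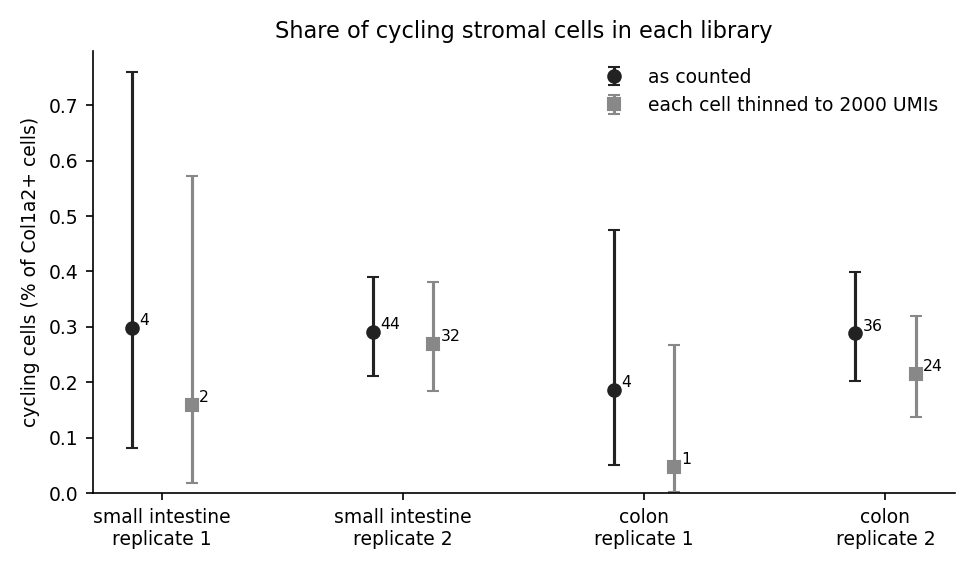
Share of cycling cells among Col1a2+ cells (%) in the 4 libraries, as counted (circles) and after each cell was thinned to 2000 UMIs (squares), with exact 95% intervals as bars and the number of cycling cells beside each point. As counted the shares lie between 0.186% and 0.298%, and all intervals overlap.

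A deep cell can show a rare transcript more often than a shallow one, so shares were also counted at 1 depth. After each cell had been thinned to 2000 UMIs, with shallower cells left out, cycling cells were 2 of 1260 (0.159%), 32 of 11853 (0.270%), 1 of 2085 (0.0480%) and 24 of 11163 cells (0.215%). Both replicate 1 libraries, with 2 and 1 cells left, then lay below both replicate 2 libraries. Leaving out colon replicate 1 reduced the difference between the intestines to -0.00577 points, and leaving out cells with a UMI of another lineage, among them 2 of the 4 cycling cells of small intestine replicate 1, reduced it to -0.0105.

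Several of the 7 genes were usually present together. *Top2a*, the topoisomerase that untangles replicated DNA, was detected in 65 of the 88 cells, *Mki67*, which codes for the proliferation antigen Ki-67, in 56, and *Tk1*, thymidine kinase, in 55. The centromere gene *Cenpm* was found in 54 cells, the replication checkpoint gene *Clspn* in 51, the central spindle gene *Prc1* in 43 and the linker histone gene *Hist1h1b* in 39. *Mki67* and *Top2a* were found together in 46 cells. Exactly 2 of the genes were detected in 28 cells, 3 in 13 and 4 or more in 47, with all 7 in 13 cells.

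With *Tk1*, *Clspn* and *Hist1h1b* read as S phase genes and *Mki67*, *Top2a* and *Prc1* as genes of G2 and mitosis, 66 cells held both kinds, 10 only the first and 12 only the second. In GRCm38 (GENCODE vM21) the protein-coding gene *Mki67* lies at chr7:135689784-135716361 on the minus strand, *Top2a* at chr11:98992943-99024189 on the minus strand and *Tk1* at chr11:117815526-117826092 on the minus strand.

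The stromal label was checked against markers that the rule did not use. *Col3a1* was detected in 88 of 88 cycling cells, *Col1a1* in 87 and *Dcn*, decorin, in 83. Of the defining genes of other lineages, the pan-leukocyte gene *Ptprc* was found in 3 cells with 4 UMIs in all, and the whole list of 10 immune markers summed to 15, 31, 3 and 16 UMIs. One small intestinal cell of each replicate held much of this, with 10 and 29 immune UMIs beside 4 and 1 UMIs of *Col1a2*, and both lay in the plasma cell-like cluster. All mesothelial (6 genes) and all erythroid markers (5 genes) were at 0 UMIs. Epithelial markers were at 0 in 3 libraries and at 13 UMIs in colon replicate 1, and endothelial markers summed to 0, 3, 4 and 0 UMIs. Immunoglobulin transcripts lay almost wholly in 1 cell of colon replicate 2, which held 128 of 132 *Igkc* and 92 of 95 *Igha* UMIs. Scrublet scored 2 of 88 cells as doublets (1 in each colon library).

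Cells just inside and just outside the threshold are given once. Over 213 cell cycle genes that the rule did not use, summed CPM (counts scaled to 1000000 UMIs per sum) in cells with 0, 1, 2 and at least 3 rule genes were 2767, 3235, 13176 and 28419 in small intestine replicate 2. In colon replicate 2 they were 2983, 3365, 7107 and 32217. Cells with 1 rule gene thus lay close to cells with none, and cells with 2 lay, as sums, between these and cells with 3 or more. Single cells with 2 rule genes reached down to the marker-free level, such as 1 of colon replicate 2 at 1933 CPM with 8 other cell cycle genes. The 8 cells of the replicate 1 libraries showed less of this, with 5005 CPM in the 1 cell with 2 rule genes and 19070 CPM in 3 cells with more in small intestine, and 5024 CPM in 2 such cells and 8237 CPM in 2 cells in colon, against 3344 and 3354 CPM in marker-free cells. Other cell cycle genes detected per member numbered 8 to 122, with a median of 55.

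**Figure D2:**
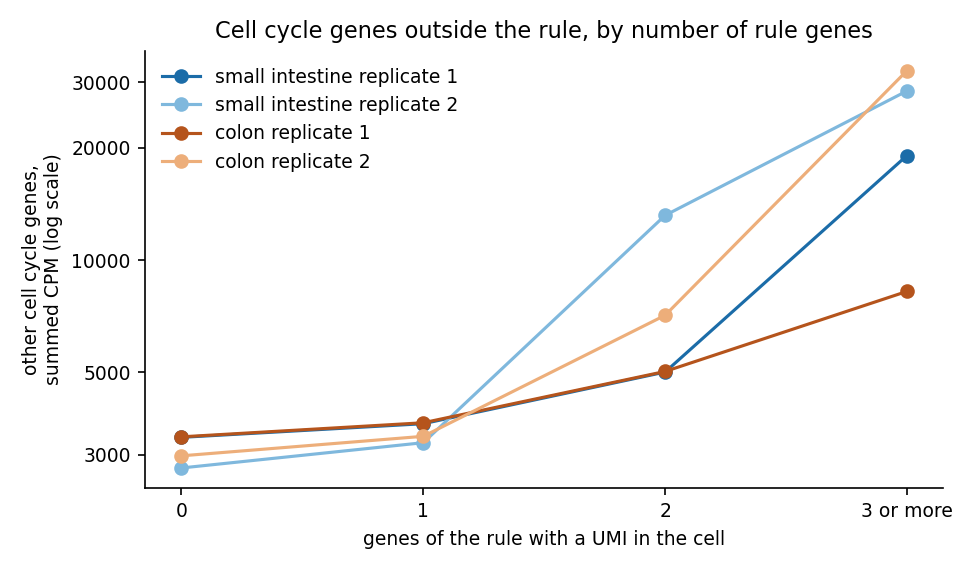
Summed CPM (log scale) of 213 cell cycle genes outside the rule, in Col1a2+ cells grouped by how many of the 7 rule genes they held, 1 line per library. All 4 lines stay between 2767 and 3659 CPM for 0 and 1 rule genes and rise from there, most in small intestine and colon replicate 2.

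Cycling cells were deeper than marker-free cells, and the rule, which asks for UMIs of 2 rare genes, itself favours deep cells. Cells with 1 rule gene were deeper too, with medians of 9361, 3260.5, 11360 and 4631 UMIs. Median depth was 10510.5, 4542, 18957.5 and 7961.5 UMIs per cycling cell, above the marker-free median in 4 of 4 libraries. Thinned to 2000 UMIs, cycling cells still showed more genes per cell, with medians of 1145, 1165, 1107.5 and 1132.5 genes against 1046, 1054, 1090 and 1041 genes in marker-free cells. Mitochondrial UMIs made up a median of 3.001%, 2.93%, 1.87% and 2.12% in cycling and 2.66%, 2.95%, 2.19% and 2.39% in marker-free cells, with no common direction.

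Cell cycle genes outside the rule were compared by level and fold only, since they go with the 7 genes in a dividing cell. Counts were summed over the cells of a library and state and are given as CPM. Of all 11350 genes tested, 149 (1.31%) were at least 2-fold higher in cycling cells in 4 of 4 libraries. Among 19 replication licensing genes 13 met this, and the median log2 fold change of the 15 that passed the filter on low counts was 4.05. *Mcm5*, a subunit of the MCM helicase, was at 64.1, 109, 62.1 and 139.7 CPM in cycling cells and at 1.39, 1.85, 2.28 and 2.43 CPM in marker-free cells. *Gmnn*, geminin, which blocks a repeat of licensing, was at 128, 129, 74.5 and 147 CPM against 1.29, 1.07, 2.69 and 2.92 CPM. In both genes the lowest cycling sum lay far above the highest marker-free sum.

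DNA synthesis and nucleotide supply showed a smaller but even shift, with 21 of 28 genes at least 2-fold higher in 4 of 4 libraries and a median log2 fold change of 2.95 over 24 genes. *Pcna*, the sliding clamp of the polymerases, was at 427, 238, 137 and 276 CPM in cycling and 64.0, 42, 37.5 and 46.5 CPM in marker-free cells. *Tyms*, thymidylate synthase, was at 171, 238, 86.9 and 199 CPM against 14.1, 12.7, 11.2 and 11.9 CPM. *Pcna* was thus also well detected in cells without the 7 genes, and the difference was larger for *Tyms* (log2 fold change 3.62) than for *Pcna* (2.18).

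Mitotic genes were less uniform across libraries. Of the lists for condensation (20 genes), kinetochore and checkpoint (20 genes), spindle and cytokinesis (25 genes) and mitotic cyclins and kinases (34 genes), 4, 8, 5 and 12 genes were at least 2-fold higher in 4 of 4 libraries. *Cdk1*, the kinase that starts mitosis, was at 21.4, 178, 24.8 and 220.0 CPM against 0.396, 0.602, 0.710 and 0.817 CPM, and *Birc5*, survivin, of the chromosomal passenger complex, was at 64.1, 258, 12.4 and 213 CPM against 0.396, 0.626, 0.406 and 0.531 CPM. *Stmn1*, which destabilises microtubules, was the most abundant of those named here with 876, 1606, 261 and 1327 CPM against 9.11, 8.57, 9.74 and 10.6 CPM. Several mitotic genes had no UMI in the 8 cells of the replicate 1 libraries. *Cdc20*, the activator that triggers anaphase, had 0, 28, 0 and 49 UMIs in cycling cells, *Ccna2*, cyclin A2, had 0, 16, 0 and 34, and *Anln*, anillin, of the cleavage furrow, had 0, 17, 0 and 34. All 3 genes were thus seen in cycling cells of the replicate 2 libraries and in neither replicate 1 sum, whose 4 cells each allow no statement on absence.

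Histone genes other than *Hist1h1b* summed to 470.0, 1388, 86.9 and 2340.0 CPM in cycling and 190.3, 199, 147 and 171 CPM in marker-free cells, so that colon replicate 1 alone was lower in cycling cells. *Hist1h2ae* had 5, 72, 0 and 233 UMIs and *Hist1h2ap* 5, 35, 0 and 88 UMIs in cycling cells. Of 66 histone genes other than *Hist1h1b*, 42 had a UMI in cycling cells and 0 were at least 2-fold higher in every library. Histone genes of these clusters are near-identical, so how reads were split among them is uncertain. *H2afz*, a variant histone gene outside these clusters, was at 833, 1889, 559 and 1862 CPM against 305, 236, 262 and 297 CPM, higher in every library.

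Promoters of 2 replication genes (*Mcm5* and *Pcna*) and 2 mitotic genes (*Cdk1* and *Ccnb2*) are shown to let their letters be compared. They are RefSeq sequences of GRCm38.p6, 5′ to 3′ on the strand of the gene, from 250 bases before to 50 bases after the start. Capitals mark the CHR letters TTTGAA, the CCAAT box letters CCAAT and 4 E2F site forms (TTTCCCGC, TTTCGCGC, TTTGGCGC and TTTGCCGC), each also as its reverse complement. *Mcm5* is at chr8:75109259-75109558 (plus strand), *Pcna* at chr2:132253131-132253430 (minus strand), *Cdk1* at chr10:69352863-69353162 (minus strand) and *Ccnb2*, cyclin B2, at chr9:70421505-70421804 (minus strand).
Mcm5: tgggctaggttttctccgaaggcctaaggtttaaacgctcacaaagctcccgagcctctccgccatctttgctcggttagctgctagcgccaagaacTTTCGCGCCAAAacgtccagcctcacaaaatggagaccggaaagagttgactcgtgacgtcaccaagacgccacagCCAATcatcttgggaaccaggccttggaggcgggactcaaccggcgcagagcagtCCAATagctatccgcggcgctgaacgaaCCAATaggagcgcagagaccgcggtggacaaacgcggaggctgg
Pcna: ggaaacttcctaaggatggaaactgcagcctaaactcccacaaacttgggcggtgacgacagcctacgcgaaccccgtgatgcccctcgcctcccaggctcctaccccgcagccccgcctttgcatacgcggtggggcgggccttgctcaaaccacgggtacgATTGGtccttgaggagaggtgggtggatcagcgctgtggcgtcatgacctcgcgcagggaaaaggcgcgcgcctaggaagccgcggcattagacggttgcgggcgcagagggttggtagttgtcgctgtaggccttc
Cdk1: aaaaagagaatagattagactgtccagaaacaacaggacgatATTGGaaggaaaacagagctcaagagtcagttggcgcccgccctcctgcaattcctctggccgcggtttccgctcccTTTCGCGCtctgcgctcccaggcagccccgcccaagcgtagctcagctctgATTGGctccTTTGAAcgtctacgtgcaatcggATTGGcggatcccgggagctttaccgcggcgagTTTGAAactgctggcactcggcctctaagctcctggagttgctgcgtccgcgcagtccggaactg
Ccnb2: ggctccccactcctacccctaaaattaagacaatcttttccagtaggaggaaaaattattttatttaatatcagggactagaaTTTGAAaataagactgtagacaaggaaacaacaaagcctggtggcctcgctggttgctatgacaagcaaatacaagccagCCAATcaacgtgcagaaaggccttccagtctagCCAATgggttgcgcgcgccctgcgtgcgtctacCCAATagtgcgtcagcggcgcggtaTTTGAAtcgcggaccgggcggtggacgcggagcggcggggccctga
The *Mcm5* window holds 2 overlapping E2F forms on opposite strands, at -153 and -149 from the start, with 3 CCAAT boxes and no CHR. *Pcna* holds 1 CCAAT box at -87 and neither an E2F form nor CHR letters. *Cdk1* holds 1 E2F form at -131, 3 CCAAT boxes and 2 CHR letters at -71 and -15, and *Ccnb2* holds 3 CCAAT boxes and 2 CHR letters at -167 and 5.

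Over the lists, the CHR letters were found in 56.3% of 71 promoters of 66 mitosis genes, in 15.9% of 44 promoters of 36 replication genes and in 15.7% of all 21959 promoters searched. An E2F form was found in 9.86% of mitosis, 31.8% of replication and 2.71% of all promoters, and a CCAAT box in 69.0%, 59.1% and 37.6%. CHR and CCAAT were found together in 46.5% of mitosis and 6.82% of replication promoters, against 6.33% of all. These are matches of letters in a window of 300 bases, not sites of a factor. The immediate early genes described below held CHR letters in 10.5% of 19 promoters and an E2F form in 0 of 19.

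To ask what else sets cycling cells apart, sums of cycling and marker-free cells were compared with library as a term (quasi-likelihood test of edgeR, p-values adjusted over all genes by Benjamini-Hochberg, threshold 0.05). Of 11350 genes, 939 (8.27%) were called, 409 (3.6%) higher and 530 (4.67%) lower in cycling cells. With the size factors of DESeq2 the split turned to 475 higher and 367 lower, and the median log2 fold change of all genes moved from -0.21 to -0.10. Outside the cell cycle lists, 315 of 11243 genes were called higher and 530 lower. Leaving out small intestine replicate 2 or colon replicate 2 reduced the calls to 380 and 409.

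The 10 genes with the largest rise outside the lists are given without p-values, since some of them, such as *Rfc2*, are known replication genes that the lists did not hold. *2810417H13Rik* (*Pclaf*, a partner of PCNA, at chr9:65890237-65903266 on the plus strand) was at 278, 550.2, 74.5 and 304 CPM in cycling and at no more than 0.278 CPM in marker-free cells. *Slfn9* was at 192, 154, 86.9 and 87.3 CPM against 1.58, 1.83, 0.710 and 1.25 CPM, and *Tcf19* at 149.6, 94.2, 24.8 and 94.3 CPM against 2.57, 2.43, 6.85 and 3.06 CPM. Each of these sums in cycling cells exceeded every marker-free sum. *Zfp367*, *Nrm* (a nuclear envelope gene), *Lmnb1* (lamin B1), *Dnajc9* (a histone chaperone), *Haus4* (of the augmin complex of the spindle), *Dctpp1* (which clears unusual nucleotides) and *Rfc2* (of the clamp loader) followed, with log2 fold changes of 4.16, 3.54, 3.34, 3.09, 2.80, 2.69 and 2.45.

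Because cycling cells were deeper and came from particular clusters, they were also set against up to 20 marker-free cells of the same library and cluster that were nearest in depth, a comparison chosen after the data had been seen. Matched cells numbered 60, 880, 80 and 720, with median depths of 9996.5, 4000, 15514.5 and 6904 UMIs. Of 5761 genes tested, 255 (4.43%) were called higher and 161 (2.79%) lower, and the median log2 fold change of all genes was -0.08. Of 231 genes higher in the first comparison and tested in both, 205 were called higher again, whereas of 451 lower genes 152 were called lower again. Of all 682 genes called in the first comparison and tested in both, 680 had the same direction in the second. Both comparisons are given for most of the genes below, and only the first for some.

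Immediate early genes, which respond within minutes to growth factors and to stress, were lower in cycling cells. Their summed level was 17135, 24329.9, 36141 and 40978 CPM in cycling cells, 19206, 30439, 52575 and 54718 CPM in matched cells, and 29702, 36915, 48224 and 54751 CPM in all marker-free cells. Cycling cells were lowest in each of the 4 libraries, by the smallest margin against matched cells of small intestine replicate 1. Of all genes tested, 4.67% were called lower against all marker-free cells and 2.79% against matched cells. Of the 17 immediate early genes, 14 were called lower and 0 higher against all marker-free cells (median log2 fold change -0.83), and 9 were called lower and 0 higher against matched cells (median -0.48). Without small intestine replicate 2 the first number was 9, with marker-free cells matched one to one on depth it was 1 and with no library term 0, while the median lay between -1.24 and -0.48 in all 20 settings run.

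**Figure D3:**
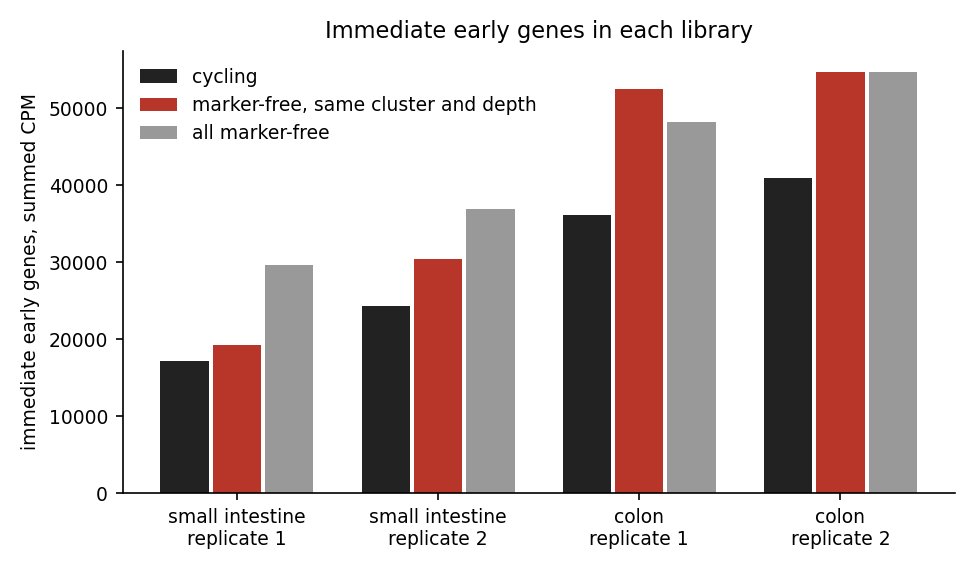
Summed CPM of 17 immediate early genes in cycling cells (black), in marker-free cells of the same cluster and depth (red) and in all marker-free cells (grey), for each library. The black bar is the lowest in all 4 libraries, at 17135 to 40978 CPM.

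*Klf4*, a transcription factor known to restrain proliferation in several tissues (chr4:55527143-55532466, minus strand), showed the largest fall of the list. It was at 85.5, 461, 273 and 786 CPM in cycling, 314, 875, 569 and 1367 CPM in matched and 491, 1218, 639.6 and 1620.1 CPM in all marker-free cells, lower than in matched cells in 4 of 4 libraries. The log2 fold change was -1.63 ± 0.21 (SE, adjusted p = 2.61e-13, edgeR) and -1.10 ± 0.17 against matched cells (adjusted p = 9.45e-05). *Fosb* fell by 1.16 ± 0.19 on the log2 scale (adjusted p = 3.25e-08, edgeR) and by 0.71 ± 0.15 against matched cells (adjusted p = 0.00315). *Atf3*, *Junb*, *Jun*, *Fos*, *Zfp36*, *Jund* and *Socs3* were called lower in both comparisons too, with log2 fold changes between -0.69 and -0.41 against matched cells. *Egr2*, *Ier3* and *Klf6* did not pass the test in either.

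Growth factor receptors that fell included *Pdgfra*, the receptor for PDGF-A that most gut FB carry. It was at 149.6, 283, 124 and 269 CPM in cycling, 263, 352, 180.4 and 437 CPM in matched and 485, 354, 431 and 297 CPM in all marker-free cells, lower than in matched cells in each library. Its log2 fold change was -1.04 ± 0.22 (adjusted p = 9.89e-05, edgeR) and -0.68 ± 0.19 against matched cells (adjusted p = 0.0268). *Tgfbr3*, a co-receptor for TGF-β, fell by 1.70 ± 0.27 on the log2 scale (adjusted p = 2.15e-08, edgeR) and by 1.14 ± 0.26 against matched cells (adjusted p = 0.00522). *Egfr*, the EGF receptor, fell by 1.38 ± 0.36 on the log2 scale and by 1.16 ± 0.36 against matched cells (adjusted p = 0.00335 and 0.0499, edgeR), on 17 UMIs in cycling cells. In all, 5 of 26 tested genes of growth factor and hedgehog signalling fell and 0 rose, where 4.67% of all genes fell. Against matched cells 3 of 23 fell, where 2.79% of all genes did. *Il6st* and *Tgfbr2* were the other 2 of the 5, with values of -0.56 each against matched cells, which did not pass the test. Without small intestine replicate 2 the adjusted p of *Egfr* was 0.0627 (edgeR), the call of *Il6st* was lost without small intestine or colon replicate 2 (0.143 and 0.0651), and that of *Tgfbr2* was lost without any 1 of the 4 libraries (0.0666 to 0.493).

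Signals to the epithelium were called lower in 7 and higher in 1 of 27 tested genes (median log2 fold change -0.73), beside 4.67% and 3.6% of all genes. Against matched cells, where 2.79% of all genes were lower, 1 of 20 was lower and 0 higher. That gene was *Grem1* (chr2:113746164-113758646, minus strand), a BMP antagonist of the crypt niche. *Grem1* was at 0, 24.8, 174 and 24.4 CPM in cycling, 55.4, 198, 251 and 127 CPM in matched and 338, 413, 244 and 309 CPM in all marker-free cells, and in colon replicate 1 alone the cycling level came near the others. Its log2 fold change was -3.10 ± 0.53 (adjusted p = 0.00200, edgeR) and -2.00 ± 0.34 against matched cells (adjusted p = 0.000996). *Nrg1*, a ligand of ERBB receptors, rose by 0.89 ± 0.27 on the log2 scale against all marker-free cells (adjusted p = 0.0169, edgeR) and was at -0.08 ± 0.26 against matched cells. *Rspo3*, a WNT amplifier, fell by 1.59 ± 0.38 (adjusted p = 0.00104, edgeR) and was at -0.83 ± 0.44 against matched cells (adjusted p = 0.301). The call of *Grem1* against all marker-free cells was lost without scrublet doublets (adjusted p = 0.230, edgeR) and with the size factors of DESeq2 (0.0554), that of *Rspo3* without small intestine replicate 2 (0.338), and that of *Nrg1* without small intestine or colon replicate 2 (0.701 and 0.146).

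Matrix genes together stood at 35444, 39425, 54249 and 36668 CPM in cycling, 44332, 50004, 38047 and 38630.2 CPM in matched and 50393, 58623, 40947 and 42053 CPM in all marker-free cells, so that colon replicate 1 was higher and the other libraries lower in cycling cells. Of 34 tested, 11 were called lower, where 4.67% of all genes were, and 0 higher (median log2 fold change -0.25, against -0.21 over all genes tested). Against matched cells 1 of 34, *Fbln1*, fibulin-1, was called lower (median -0.09), a share near the 2.79% of all genes. *Dcn* was at 8418, 8898, 6185 and 4669 CPM in cycling, 9880.0, 12709.8, 4893 and 6911 CPM in matched and 15499.9, 17075, 6744 and 9231 CPM in all marker-free cells, so that matched cells lay below all marker-free cells in each library and, in colon replicate 1, below cycling cells too. The log2 fold change of *Dcn* was -1.04 ± 0.15 (adjusted p = 6.5e-10, edgeR) and -0.38 ± 0.14 against matched cells (adjusted p = 0.101). With marker-free cells matched one to one on depth its direction reversed. *Col1a1*, the main chain of collagen I, fell by 0.55 ± 0.17 on the log2 scale (adjusted p = 0.0237, edgeR) and was at -0.18 ± 0.19 against matched cells. *Fbln1* fell by 1.30 ± 0.18 (adjusted p = 8.07e-11, edgeR) and by 0.53 ± 0.16 against matched cells (adjusted p = 0.0448). In colon replicate 1, however, *Fbln1* was higher in cycling (1925 CPM) than in matched cells (1748 CPM). The call of *Col1a1* was lost without small intestine replicate 1 or 2 or colon replicate 2 (adjusted p = 0.249, 0.658 and 0.0530, edgeR).

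**Figure D4:**
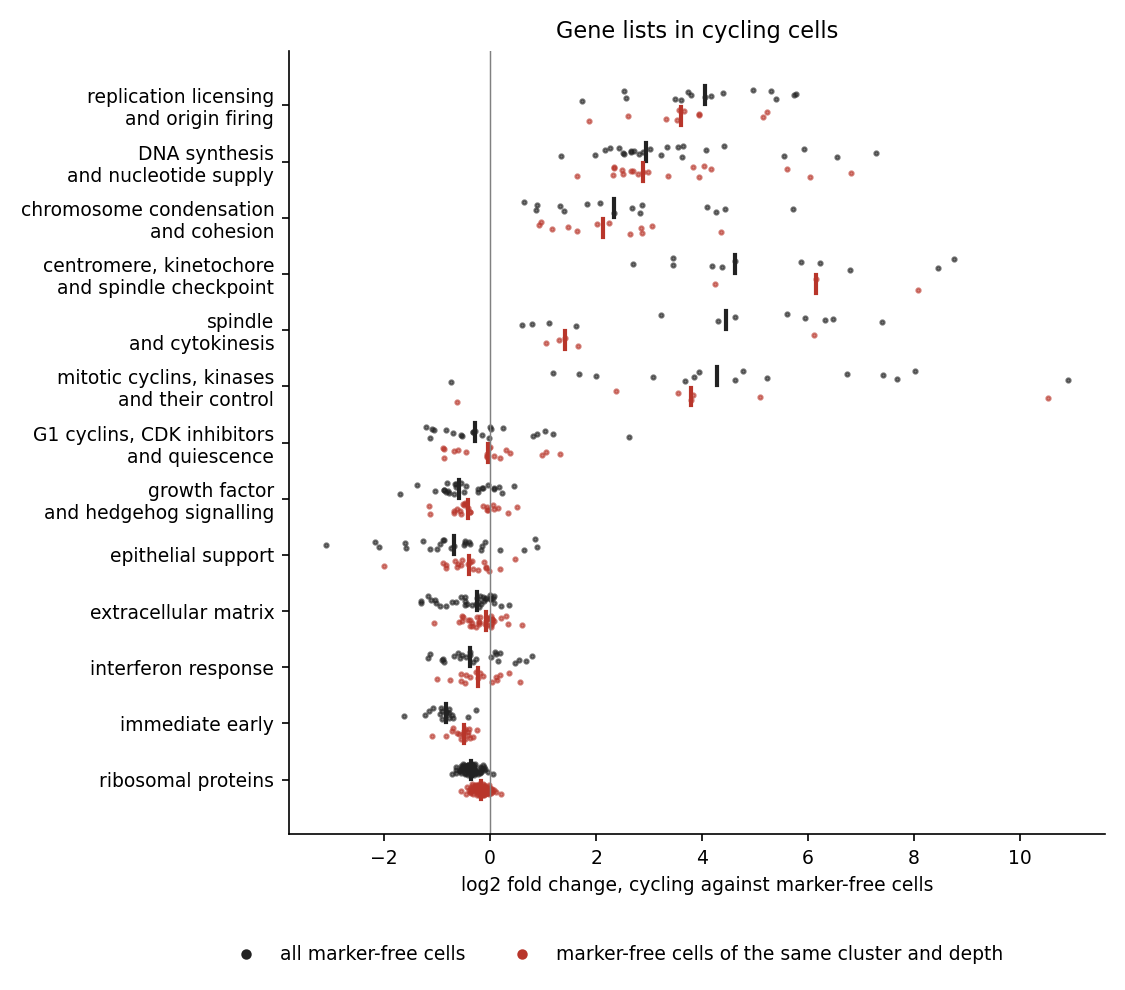
Log2 fold change of each tested gene with a UMI in cycling cells, by gene list, against all marker-free cells (black) and against marker-free cells of the same cluster and depth (red), with the median of each list as a bar. Replication and mitosis lists lie at medians of 1.41 to 6.15, while immediate early genes lie at -0.83 and -0.48.

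Of 21 tested genes of G1 cyclins, CDK inhibitors and quiescence, 4 rose and 2 fell, where 3.6% of all genes rose and 4.67% fell. *Cdk4*, the G1 kinase, was at 363, 253, 236 and 283 CPM in cycling and 154, 101, 137 and 117 CPM in matched cells, higher in each library. It rose by 1.05 ± 0.21 on the log2 scale and by 1.06 ± 0.17 against matched cells. *Cdk4* was the 1 gene of 18 called there, a share near the 4.43% of all genes called higher. *Rbl1*, the p107 pocket protein, rose by 2.63 ± 0.48, and the CDK inhibitor genes *Cdkn2c* and *Cdkn2d* by 1.19 ± 0.32 and 0.88 ± 0.27. Cell cycle genes go with the rule genes in a dividing cell, so the 4 rises are a description only, without p-values. How far they follow from the choice of cells was not tested. *Ccnd2*, cyclin D2, fell by 1.10 ± 0.28 and *Tob1*, an antiproliferative gene, by 1.13 ± 0.35 (adjusted p = 0.00276 and 0.0217, edgeR). Against matched cells *Ccnd2* and *Tob1* were at -0.87 and -0.88 and did not pass the test, and *Cdkn1a* and *Cdkn1b*, the p21 and p27 inhibitors, passed it in neither comparison. The call of *Cdk4* was lost without small intestine replicate 2, that of *Rbl1* without colon replicate 2, and those of the other 4 without either of these libraries.

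Of 77 ribosomal protein genes tested, 10 fell, where 4.67% of all genes fell, and 0 rose (median log2 fold change -0.36), and against matched cells 1 fell. The number that fell was 26 without scrublet doublets and 28 in the replicate 2 libraries alone, but 5 when colon replicate 1 was left out and 0 when either replicate 2 library was left out. It was 0 too in the DESeq2 Wald test and against depth-matched cells. Interferon response genes were called lower in 1 of 23 (*Isg15*) and in 0 of 17 against matched cells, and 0 of 18 Hox genes were called (edgeR, adjusted p). Of 6 tested immune markers 3 were called higher against all marker-free cells (median log2 fold change 2.30), and none of them could be tested against matched cells. Summed immune markers stood at 320.5, 154, 37.3 and 55.9 CPM in cycling and 123, 21.9, 52.7 and 15.9 CPM in marker-free cells, and 3 cycling cells of small intestine lay in a plasma cell-like cluster. The part of these markers in the results above was not tested.

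The 10 largest falls by the naming rule, of which 9 are given, were genes with 0 UMIs in all 88 cells. Against 3 counts over the cycling cells, *Pigz* was at least 3.46-fold, *Wif1*, a secreted WNT inhibitor, at least 3.21-fold, *Vldlr* at least 2.99-fold and *Tom1* at least 2.73-fold lower. *Palmd* followed at 2.39-fold, *Spock2* at 2.32-fold, *Cldn10* at 2.12-fold, *Rspo2*, a WNT amplifier, at 2.11-fold and *1810010H24Rik* at 1.91-fold, each as a lower bound. *Cldn10* and *Vldlr*, with *Grem1*, are among the 10 leading genes of a small intestinal CD81+ FB-like cluster that held 1 cycling cell, and *Wif1* and *Palmd* among those of a colonic PDGFRαhi FB-like cluster that held 7.

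Genes that also fell against matched cells, outside the lists above, included *Hpgd*, which degrades prostaglandins, and *Apoe*, apolipoprotein E. *Hpgd* was at 42.7, 0, 62.1 and 38.4 CPM in cycling and 53.7, 61.1, 78.0 and 149 CPM in matched cells, and *Apoe* at 491, 238, 12.4 and 101 CPM against 753, 559, 358 and 240.0 CPM. Both were lower in 4 of 4 libraries. Against matched cells the log2 fold change was -1.90 ± 0.38 for *Hpgd* and -1.48 ± 0.28 for *Apoe* (adjusted p = 0.00243 and 0.00445, edgeR). These 2 genes were chosen after their values had been seen. *Apoe* is among the markers used to name Fgfr2+ FB, and *Hpgd* is among the leading genes of a small intestinal CD81+ FB-like cluster. Against matched cells 3 of 7 tested markers of Fgfr2+ FB and 3 of 10 of PDGFRαhi FB were called lower. So were 1 of 8 of CD81+ FB and 2 of 5 of Igfbp5+ or CD90+ FB, where 2.79% of all genes were.

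To locate the cycling cells among stromal classes, each intestine was clustered with the 7 genes and all cell cycle lists left out of the features. Cell cycle scores were regressed out as well, so the placement of cells was not free of cell cycle genes. Names rest on fixed markers, and clusters that met no name stayed unnamed. In small intestine 26 of 48 cycling cells lay in 1 cluster that was Fgfr2+ FB-like, led by *Mmp10*, *P2rx1* and *Cxcl14*. They made up 2 of 133 cells in replicate 1 (1.504%, 0.183 to 5.33%) and 24 of 2367 cells in replicate 2 (1.01%, 0.651 to 1.505%). In replicate 2 the CD81+ FB-like cells held 1 cycling cell of 3024 (0.0331%, 0.000837 to 0.184%), the PDGFRαhi FB-like cells 5 of 1599 (0.313%, 0.102 to 0.728%) and unnamed clusters 13 of 7808 (0.166%, 0.0887 to 0.285%). The interval of the Fgfr2+ FB-like cells thus lay above those of the CD81+ FB-like and unnamed cells and overlapped that of the PDGFRαhi FB-like cells. The small plasma cell-like cluster held 2 of 26 cells in replicate 1 (7.69%, 0.946 to 25.1%) and 1 of 63 in replicate 2 (1.59%, 0.0402 to 8.53%). These shares were higher, with wide intervals. Median depth in replicate 2 was 2546 UMIs in Fgfr2+ FB-like and 3153 UMIs in CD81+ FB-like cells. After thinning to 2000 UMIs the share of Fgfr2+ FB-like cells of replicate 2 was 1.22%. In replicate 1 the share fell to 1 of 121 cells (0.826%) once cells with a UMI of another lineage were left out.

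In colon replicate 2 the order of classes was another one. PDGFRαhi FB-like cells held 17 of 3350 (0.507%, 0.296 to 0.811%), CD81+ FB-like cells 7 of 2688 (0.2604%, 0.105 to 0.536%) and Igfbp5+ or CD90+ FB-like cells 1 of 2569 (0.0389%, 0.000986 to 0.217%). That 1 cell was the one that held most immunoglobulin UMIs. Without cells holding a UMI of another lineage, the Igfbp5+ or CD90+ FB-like class held 0 of 2415. SMC-like cells held 0 of 886, which allows a share of up to 0.339% by 3 counts (exact interval up to 0.415%), and unnamed clusters, 2 of which scored highest for Fgfr2+ FB, held 10 of 2767 (0.361%). PDGFRαhi and Igfbp5+ or CD90+ FB-like intervals did not overlap. Cells like interstitial cells of Cajal held 1 of 180 (0.556%, 0.0141 to 3.06%), a higher share that rests on 1 cell. Colon replicate 1 held 2 cycling cells among 250 SMC-like cells and 2 in unnamed clusters, and 0 of 591 PDGFRαhi FB-like cells. One of the 2 SMC-like cells was a scrublet doublet with 13 UMIs of epithelial markers, and without doublets 1 of 241 SMC-like cells was cycling (0.415%). In each library the cycling cells lay in more than 1 cluster.

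**Figure D5:**
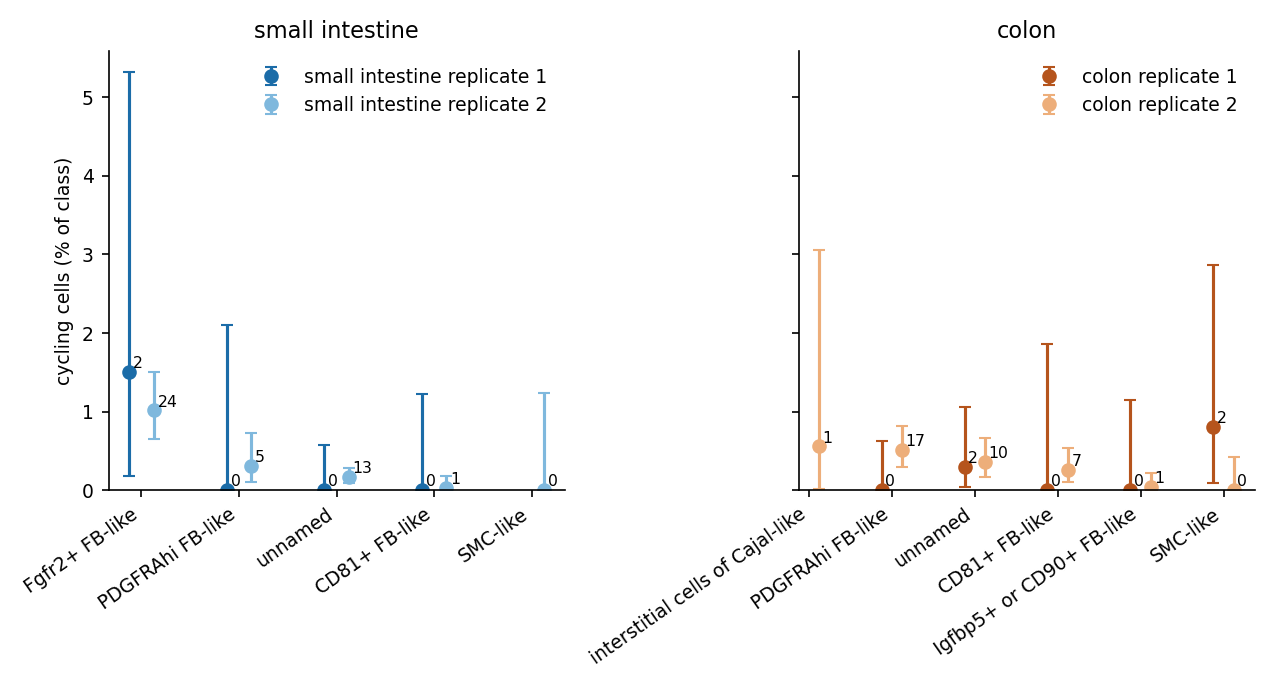
Share of cycling cells (%) within each class of at least 100 cells in a library, for small intestine (left) and colon (right), with exact 95% intervals as bars and the number of cycling cells beside each point. Fgfr2+ FB-like cells lie highest in small intestine (1.504% and 1.01%). In colon replicate 2 the PDGFRαhi FB-like cells lie at 0.507%, below cells like interstitial cells of Cajal at 0.556% (1 cell).

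Over the 3 classes named in both intestines (PDGFRαhi FB, CD81+ FB and SMC), 0 classes had the highest share in every library. PDGFRαhi FB-like cells were highest in 2 of 4 libraries (one-sided exact permutation of class labels within libraries, p = 0.259, adjusted over 3 classes p = 0.778). Small intestine replicate 1 held 0 cycling cells in these classes, so the smallest p was 0.0370. At resolution 0.3 Fgfr2+ FB-like cells were named in both intestines and were highest in 3 of 4 libraries (p = 0.0272, adjusted over 5 classes 0.136, exact permutation), and at resolution 0.8 in 2 of 4. The naming of colonic Fgfr2+ FB-like cells was thus not stable.

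Cycling cells of colon and small intestine were then compared with each other. Of 2607 genes, 0 (0%) passed both limits, an adjusted p below 0.05 and a log2 fold change over 1.5 in size, with 123 at an unadjusted p under 0.05 (edgeR). With the replicate number as a block 28 genes were called, and the DESeq2 Wald test called 12. Replicate numbers go with depth and with the version of Cell Ranger in both intestines. Without small intestine replicate 1 or 2 or colon replicate 1 or 2 the edgeR fit called 26, 13, 79 and 92. Sums of 4 cells vary more than sums of many cells, while the fit gives each gene 1 spread. The part of this in the counts was not tested.

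Values of signalling and matrix genes, chosen after their values had been seen, are given side by side. *Sfrp1*, a WNT modulator, was at 1602, 1933, 522 and 321 CPM and *Igf1*, an insulin-like growth factor, at 427, 416, 99.4 and 112 CPM, both with all small intestinal sums above all colonic sums. *F3*, tissue factor, was at 0, 14.9, 161 and 175 CPM and *Tnc*, tenascin C, at 278, 183, 882 and 527 CPM, with all colonic sums above all small intestinal sums. *Nrg1* was at 21.4, 64.4, 112 and 255 CPM and *Bmp7* at 21.4, 34.7, 137 and 136 CPM, again higher in both colonic sums. None of these differences passed the correction, with log2 fold changes (colon over small intestine) of -2.00, -1.91, 3.84, 1.73, 1.94 and 2.16. In marker-free cells the same order held for *Sfrp1*, *Igf1*, *F3*, *Nrg1* and *Bmp7*, and for *Tnc* the sums overlapped, at 299, 162, 654 and 247 CPM. *F3*, *Tnc*, *Nrg1* and *Bmp7* are among the markers used to name PDGFRαhi FB, and *Sfrp1* among those of CD81+ FB. PDGFRαhi FB-like cells were 17 of 36 cycling cells in colon replicate 2, 5 of 44 in small intestine replicate 2 and 0 of 4 in each replicate 1 library. The part of this class mix was not tested.

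Genes whose difference between the intestines was not the same in cycling and in marker-free cells were sought with a state by tissue term. Of 12495 genes, 19 (0.152%) were called (edgeR, adjusted p under 0.05), 15 with a term towards colon in cycling cells and 4 towards small intestine. *Ogn*, osteoglycin of the matrix, had 0, 3, 127 and 113 UMIs in cycling cells and was at 414, 212, 1104 and 702 CPM in marker-free cells (adjusted p = 7.38e-08, edgeR). *Ccl11*, the chemokine eotaxin, had 137, 308, 1 and 39 UMIs and was at 1235, 823, 774 and 316 CPM in marker-free cells (adjusted p = 6.56e-05, edgeR). *Cd81*, a tetraspanin, had 0, 0, 2 and 50 UMIs against 158, 102, 134 and 174 CPM in marker-free cells (adjusted p = 0.00111, edgeR). *Ogn* and *Cd81* thus had at most 3 UMIs in either cycling sum of small intestine, and the part of the class mix was not tested.

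These calls were not stable. *Igkc* and *Igha*, with the smallest p-values, rest on the 1 cell of colon replicate 2 named above. Leaving out cells with a UMI of another lineage left 4 calls, matched cells left 5 of 7383 genes, and the DESeq2 Wald test and marker-free cells matched one to one on depth left 0, where 149 and 55 genes had an unadjusted p under 0.05. Without small intestine replicate 1, colon replicate 1 and colon replicate 2, calls numbered 5, 10 and 29.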

How the data were processed

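Counts were taken as the authors deposited them: whole UMI counts of 28692 genes per cell barcode, made per the file headers with Cell Ranger 3.0.2 (replicate 1 libraries) and 3.1.0 (replicate 2) on mm10; the labels name Cell Ranger 3.0.2 and Seurat 3. The files hold 34983 barcodes. The members and the gene lists were chosen with earlier results of these data known.

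Counts were summed per library and state and tested with edgeR 4.0.16 (R 4.3.3; TMM, filterByExpr, quasi-likelihood, library as a term for state and none for tissue). p-values were adjusted over all genes tested (Benjamini-Hochberg). Cells were clustered per intestine with Seurat 5.3.0 (resolution 0.5) and doublets scored with scanpy 1.11.5, with a score above 0.25 set after seeing the data, since the automatic threshold marked 1 cell of small intestine replicate 2. On simulated counts 57.6% of 4-fold and 75.8% of 8-fold changes were recovered for cycling against marker-free cells (11190 genes), and 20.7% and 66.7% for colon against small intestine (2211 genes). Genes named outside the lists were the 10 largest rises and 10 largest falls among called genes with the same direction in every library, with at least 50 UMIs in the sums of the higher state; between the intestines no gene was called, so none was named by the rule. Alternatives covered the cell filters, the rule, doublets, depth, DESeq2 1.42.0, the filter on low counts, the library term and each library left out. Coordinates are of GRCm38 (GENCODE vM21), where 28339 of the gene IDs matched. Intervals and floors cover counting error only. Some genes that the rules would name are not reported here.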

Additional observations from a re-analysis of the deposited data

Results flagged for a closer look

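The difference between colon and small intestine was not the same in cycling as in marker-free cells for 19 genes (edgeR, term of state by tissue). UMIs of cycling cells are given in the order of libraries used above (small intestine first, then colon), and a log2 term above 0 is towards colon in cycling cells.

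The immunoglobulin genes *Igkc* (adjusted p = 1.1e-09) and *Igha* (adjusted p = 1.62e-09) had terms of 5.87 ± 0.79 and 5.96 ± 0.81 (SE), with 128 of 132 and 92 of 95 UMIs in 1 cell of colon replicate 2. Both were also called against cells of the same cluster and depth. The matrix genes *Ogn* (term 4.44 ± 0.66, adjusted p = 7.38e-08), *Postn* (2.02 ± 0.44, adjusted p = 0.00896) and *Mfap5* (2.03 ± 0.48, adjusted p = 0.0202) had 0, 3, 127 and 113 UMIs, 0, 38, 488 and 463 UMIs, and 3, 38, 101 and 134 UMIs. In both colonic sums the UMIs of these 3 genes exceeded those of both small intestinal sums.

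*Cd81* (adjusted p = 0.00111), *Col8a1* (adjusted p = 0.00338) and *Cilp* (adjusted p = 0.0225), all among leading genes of CD81+ FB-like clusters, had 0 UMIs in cycling cells of both small intestinal libraries, and 2 and 50, 7 and 37, and 5 and 18 UMIs in those of colon. *C3*, complement component C3, had a term of 2.48 ± 0.47 (adjusted p = 0.000507), *Cxcl9*, an interferon-induced chemokine, of 3.01 ± 0.69 (adjusted p = 0.0118), *Phlda1* of 2.02 ± 0.41 (adjusted p = 0.0015), *Nfkbia*, the inhibitor of NF-κB, of 1.60 ± 0.39 (adjusted p = 0.0327) and *Bag3*, a co-chaperone, of 2.28 ± 0.56 (adjusted p = 0.0327). *F830016B08Rik* had a term of 3.82 ± 0.85 (adjusted p = 0.00843) and *Piezo2*, a mechanosensitive channel, of 5.06 ± 1.21 (adjusted p = 0.0225), on 0, 4, 0 and 40 UMIs and on 0, 1, 0 and 14 UMIs, nearly all in colon replicate 2.

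Terms towards small intestine were those of the chemokine genes *Ccl11* (-3.11 ± 0.50, adjusted p = 6.56e-05) and *Cxcl14* (-2.04 ± 0.47, adjusted p = 0.0138), of the ligand gene *Wnt4* (-2.27 ± 0.52, adjusted p = 0.0113) and of *Pcp4* (adjusted p = 4.8e-06), which had 7 UMIs in small intestine replicate 1 and 0 elsewhere. *Wnt4* and *Cxcl14* are among the leading genes of the small intestinal Fgfr2+ FB-like cluster that held 26 of 48 cycling cells.

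Cells outside the rule also held its genes. Among cells that passed the filter with no UMI of *Col1a2*, 15 of 490 in small intestine replicate 1 held at least 2 of the 7 genes (3.06%, exact interval 1.72 to 4.999%), above the 0.612% that a count of 0 would allow, against 0 of 106, 2 of 277 and 1 of 196 in the other libraries. All 15 held at least 2 immune and at least 2 plasma cell marker genes, with a median of 38067 UMIs.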

How the results depend on the processing

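The 939 calls between cycling and marker-free cells became 38 with marker-free cells matched one to one on depth, where 2252 genes were tested, 416 with cells of the same cluster and depth, 392 with the DESeq2 Wald test, 387 with a log2 fold change beyond 1.5 and 193 with no library term. Leaving out each library gave 380 to 1010, the fewest without small intestine replicate 2. The other alternatives stayed within 1.5 times. For single genes, 593 of 807 values kept their direction and side of the threshold, 209 kept the direction only and 5 reversed: with depth-matched cells *Col3a1* was at 0.0434, *Dcn* at 0.0260, *Sfrp1* at 0.17 and *Nrg1* at -0.56, and with cells of the same cluster and depth *Nrg1* was at -0.0825 (all log2 fold changes).

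The 0 calls between colon and small intestine in cycling cells became 12 with the DESeq2 Wald test, 52 with no filter on low counts and 13 to 92 with each library left out. With the replicate number as a block 28 genes were called. Deviations of same-numbered cycling sums correlated at r = 0.476 over 2607 genes, but with 2 pairs this does not show that the numbers pair the samples.

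The 19 genes with a different tissue effect became 4 without cells holding UMIs of other lineages, 0 with depth-matched cells, 5 with cells of the same cluster and depth, 29 with DESeq2 size factors and 0 with the DESeq2 Wald test. Leaving out each library gave 5 to 29. The cause of these changes was not tested. The difference in the share of cycling cells was negative in all settings, from -0.108 to -0.00577 percentage points with a library left out. No class of cells passed the test, but with 3 classes compared none could have after adjustment. Only at resolutions 0.3 and 0.8 was a call possible.

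Replicate 1 libraries held 4 cycling cells each, so a gene with no UMI there was not detected at this depth, which does not show its absence. Sums of 4 cells and of all marker-free cells share 1 spread per gene in the fit. Matched cells were still shallower than cycling cells in each library.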

Other observations

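Genes outside the lists that fell against cells of the same cluster and depth included *Hotairm1*, a non-coding RNA of the Hoxa cluster (log2 fold change -2.49 ± 0.65, adjusted p = 0.0182, edgeR), *Fibin* (-1.84 ± 0.31, adjusted p = 0.000199, edgeR), the lysosomal protease gene *Ctsf* (-1.78, adjusted p = 0.00584, edgeR) and *Pdcd4*, an inhibitor of translation (-1.76, adjusted p = 0.0198, edgeR). They were chosen after their values had been seen, and *Fibin* is among the leading genes of a colonic cluster like interstitial cells of Cajal.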
